A study of Arabidopsis thaliana with 8 samples.

Results

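Embryo patterning and meristem genes were followed in developing seeds of *Arabidopsis thaliana* with mutations in the CHD3 chromatin remodellers PICKLE (PKL) and PICKLE-RELATED 2 (PKR2). The set has 9 genes of the 38209 in each deposited table, found by their locus codes, namely *WOX2*, *WOX8*, *WOX9*, *CUC1*, *CUC2*, *STM*, *PLT1*, *PLT2* and *MP*. The seeds came from manually selfed plants of the *pkr2-2;pkl-10* double mutant (*pkr2-2* is SALK_115303 and *pkl-10* is GABI_273E06, both T-DNA insertions), the *pkr2-2* single mutant, the *pkl-1* single mutant and the wild type Col-0, which is the background of all the mutants. The single and double mutants carry different *pkl* alleles, so an effect of the allele and an effect of losing *PKR2* cannot be told apart where *pkl-1* is set against the double mutant. Each of the 4 genotypes had 2 biological replicates, 8 samples in all, each pooling the seeds of at least 30 siliques. The tissue labels give 4 days after pollination and the protocol gives 3. The values are FPKM (fragments counted per kilobase of transcript and per fixed number of sequenced fragments), which the authors pooled over the replicates of a genotype in each of 5 separate pairwise runs. There is therefore 1 value per genotype and table, no error between replicates, and no test of any difference below.

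An Arabidopsis embryo sets up its axis and its stem cell niches within a few divisions of the zygote. WUSCHEL-RELATED HOMEOBOX (WOX) transcription factors mark the apical and basal lineages, auxin acting through the response factor MONOPTEROS (MP) initiates the root pole, PLETHORA (PLT) AP2-domain proteins specify root stem cells, and CUP-SHAPED COTYLEDON (CUC) NAC-domain proteins define the boundary between the cotyledons and promote expression of *SHOOT MERISTEMLESS* (*STM*), the KNOX homeodomain gene that maintains the shoot meristem. PKL is known for repressing embryonic genes in seedlings and is linked to the Polycomb mark H3K27me3.

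A first set of sequences is shown because *CUC1* and *CUC2* share a feature that the other 7 genes lack. Both transcripts are known targets of the microRNA miR164, whose mature form is printed from the RefSeq annotation of TAIR10.1 with its seed, bases 2 to 8, in capitals.
ath-miR164a: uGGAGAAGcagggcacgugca
The best match to its complement in each gene is given on the transcript strand, 5′ to 3′, with the bases identical to that complement in capitals. A G:U pair is thus in lower case and counts as a mismatch.
CUC1: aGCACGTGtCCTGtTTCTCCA
CUC2: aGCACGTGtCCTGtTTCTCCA
STM: TcCAacaGCaCTtCTTgTCCA
The *CUC1* site (TAIR10.1, chr3:5111137-5111157, plus strand) and the *CUC2* site (chr5:21902301-21902321, minus strand) both lie in coding sequence of the last of 3 exons and have 3 mismatches. The *STM* match (chr1:23061690-23061710, minus strand), the closest among the other 7 genes, has 7 mismatches, and the remaining 6 genes have between 8 and 10. This site also makes up nearly all of the longest stretch of letters that the *CUC1* and *CUC2* transcripts have in common, which is 22 nucleotides. The PLT pair shares a longest run of 38 nucleotides in coding sequence.
PLT1 and PLT2: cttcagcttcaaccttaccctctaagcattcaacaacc
This run lies at chr3:7302861-7302898 in *PLT1* and at chr1:18979841-18979878 in *PLT2*, both on the plus strand. It is shown as the longest of the shared runs given here, and its effect on the assignment of reads was not tested. Among the WOX genes the longest shared runs are 17 nucleotides for *WOX8* and *WOX9*, 14 for *WOX2* and *WOX9* and 11 for *WOX2* and *WOX8*.

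The mutated genes were examined first as a check of the labels. *PKR2*, on chromosome 4, had 0.168 FPKM in *pkr2-2*, against 3.06 FPKM in Col-0. It had 0.120 FPKM in the double mutant, against 3.57 FPKM in Col-0 of the same table. In *pkl-1* it had 2.19 FPKM, against 3.36 FPKM in Col-0. *PKR2* transcript was thus low in both genotypes that carry *pkr2-2*. *PKL*, on chromosome 2, overlaps 3 other annotated genes, the largest single overlap being 522 nucleotides. It had 2.44 FPKM in the double mutant and 13.6 FPKM in Col-0. It had 15.2 FPKM in *pkl-1*, against 12.8 FPKM in Col-0, so the level of *PKL* transcript does not check the label of *pkl-1*, and it had 10.8 FPKM in *pkr2-2*, against 11.7 FPKM in Col-0. In the tables of the double mutant against the single mutants, *PKL* had 2.48 FPKM in the double mutant and 12.7 FPKM in *pkr2-2*, and 2.77 FPKM in the double mutant and 18.1 FPKM in *pkl-1*. *PKR2* had 0.122 FPKM in the double mutant and 0.198 FPKM in *pkr2-2*, and 0.137 FPKM in the double mutant and 2.62 FPKM in *pkl-1*. The number of fragments behind each value was estimated from the steps between the lowest FPKM values, which gave between 39000000 and 51700000 fragments per genotype over both replicates. Intervals given below are 95% intervals from these fragments. They cover counting error only, treat PCR copies as independent molecules, and hold nothing of the spread between replicates.

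The levels per transcript length in wild-type seeds spanned a wide range, with *MP* far above the rest. In the table with *pkr2-2*, Col-0 had 18.7 FPKM of *MP*, 5.01 of *CUC1*, 4.21 of *CUC2*, 3.62 of *WOX8*, 2.68 of *STM*, 2.36 of *WOX9*, 2.28 of *PLT1*, 1.16 of *WOX2* and 0.840 of *PLT2*. Neighbours in this order had overlapping counting intervals, except that *MP* lay above *CUC1* and *PLT1* above *WOX2*. The order differed in the mutants. In *pkr2-2*, *STM* stood in position 8, between *WOX2* at 1.34 FPKM and *PLT2* at 1.01 FPKM, and its interval overlapped with both. In the double mutant, *MP* at 39.9 FPKM was followed by *STM* at 10.4, *WOX9* at 4.84 and *CUC1* at 1.27, and none of these neighbours overlapped. The other 5 genes were all under 1 FPKM there, with *PLT2* at 0.246 FPKM below *WOX2* at 0.547 FPKM and no overlap between them. In *pkl-1*, *MP* at 35.3 FPKM and *STM* at 5.89 FPKM again led the order, without overlap with each other or with *WOX9* at 2.09 FPKM in the third position. Col-0 appears in 3 tables with the same libraries, and its FPKM in the table with *pkl-1* were 1.10 times, and in the table with the double mutant 1.17 times, those in the table with *pkr2-2* (medians over 17300 genes). FPKM are therefore compared within a table only.

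**Figure D1:**
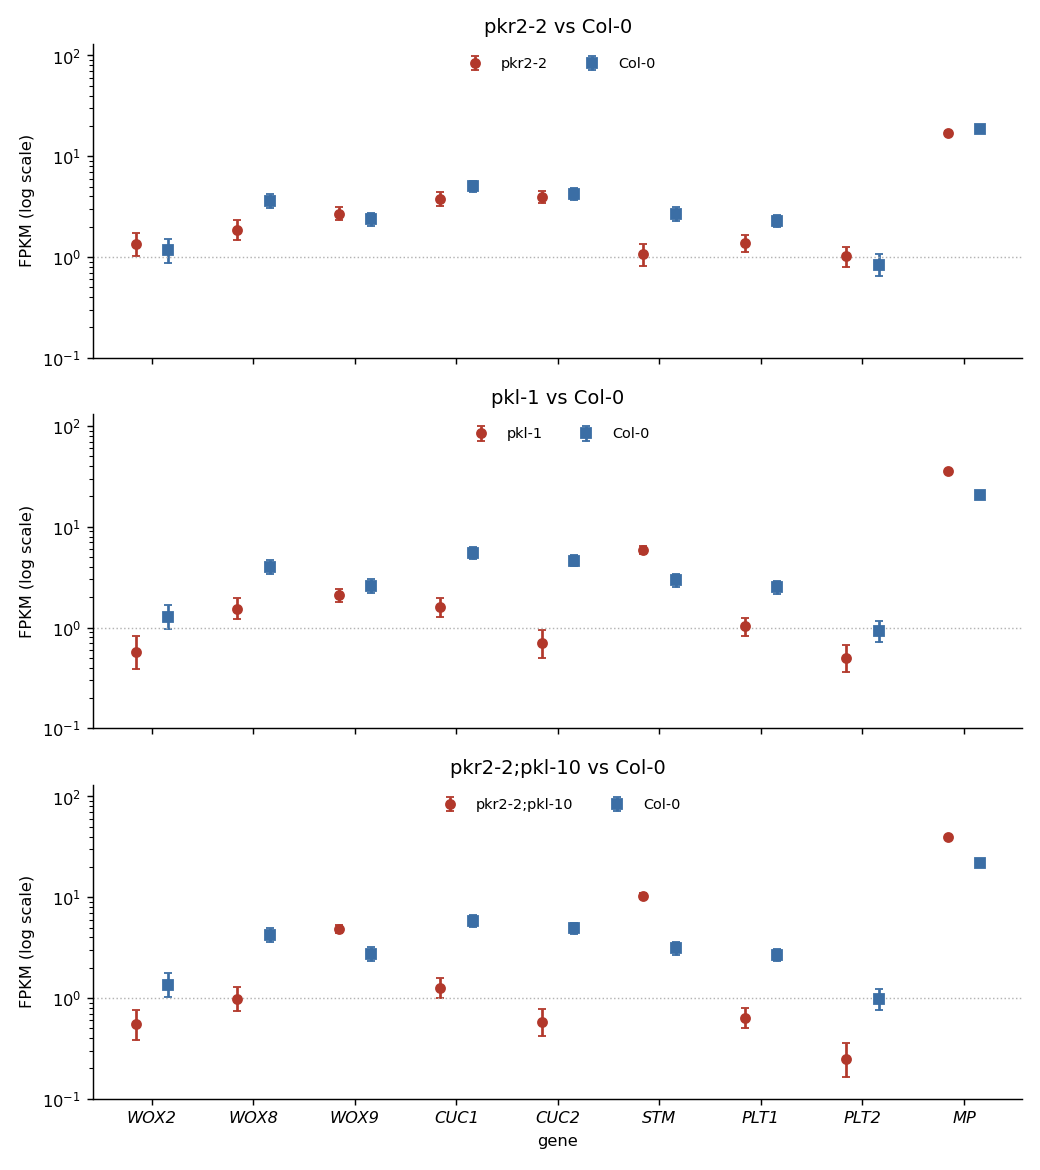
FPKM (log scale) of the 9 genes in each of the 3 tables that hold Col-0. Red circles are the mutant named in the panel title and blue squares Col-0, each 1 value pooled by the authors over 2 replicates. Bars are 95% counting intervals and the dotted line marks 1 FPKM. In the panel of the double mutant *STM*, *WOX9* and *MP* lie above Col-0 and the other 6 genes below it.

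Across the comparisons with Col-0, a gene was counted as past 2-fold when its log2 fold change was above 1 or below -1, with at least 1 FPKM in one of the genotypes and a value above 0 in both. In *pkr2-2*, 9 of 9 genes passed this filter, 0 were past 2-fold higher and 1 was past 2-fold lower, where among all 17893 genes that passed, 5.09% were higher and 3.11% lower. In *pkl-1*, 8 genes passed, 1 was higher and 5 were lower, where all genes had 9.81% higher and 8.34% lower. In the double mutant, 8 genes passed, 1 was higher and 5 were lower, where all genes had 15.2% higher and 11.2% lower. Of these 5, *WOX2*, *WOX8*, *CUC2* and *PLT1* were under 1 FPKM in the double mutant and passed through their level in Col-0. With at least 1 FPKM required in both genotypes, 4 members passed in the double mutant, 1 higher (*STM*) and 1 lower (*CUC1*), and 6 passed in *pkl-1*, 1 higher and 3 lower. With a pseudocount of 1 FPKM, which draws low values together, the members past 2-fold numbered 0 in *pkr2-2*, 2 in *pkl-1* and 5 for the double mutant. At the 4-fold threshold that the study used, the counts were 0 in *pkr2-2*, 1 in *pkl-1* and 4 for the double mutant, against 2.08%, 5.09% and 9.13% of all genes in the same order. The median log2 fold change of the genes that passed was -0.13 in *pkr2-2*, -1.22 in *pkl-1* and -1.68 for the double mutant, and that of all genes was 0.02, -0.02 and 0.03. The members that were past 2-fold lower in both *pkl-1* and the double mutant were *WOX2*, *WOX8*, *CUC1*, *CUC2* and *PLT1*, and *STM* was the member past 2-fold higher in both. The gene that did not pass in *pkl-1* and the double mutant was *PLT2*, which was under 1 FPKM in both genotypes of those tables.

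**Figure D2:**
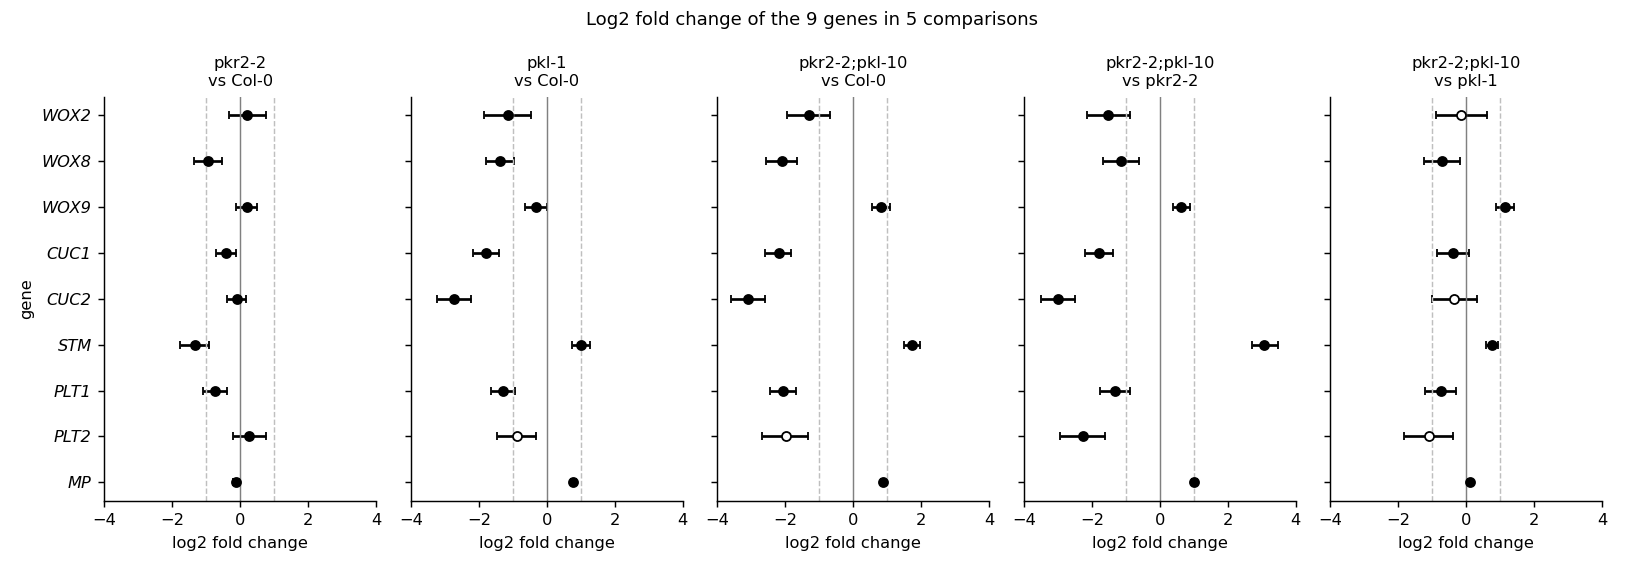
Log2 fold change of the first-named genotype over the second for the 9 genes in the 5 comparisons. Bars are 95% counting intervals, filled points passed the filter of 1 FPKM, open points did not, and dashed lines mark 2-fold. Against Col-0 in *pkl-1*, and for the double mutant against Col-0 and against *pkr2-2*, *CUC2* has the lowest point and *STM* the highest.

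*CUC1* and *CUC2*, the boundary genes, had the lowest log2 fold changes of the set against Col-0 in *pkl-1* and the double mutant. *CUC2* (AT5G53950, chromosome 5, 21901704 to 21903854, minus strand) had 0.577 FPKM in the double mutant, against 4.91 FPKM in Col-0, and its log2 fold change was -3.09 (-3.60 to -2.61). It had 0.700 FPKM in *pkl-1*, against 4.62 FPKM in Col-0, at -2.72 (-3.24 to -2.24). In *pkr2-2* it had 3.93 FPKM and in Col-0 4.21 FPKM, and the interval of this difference holds 0 (-0.38 to 0.18). *CUC2* was therefore low in the genotypes that carry a *pkl* allele and near the wild-type level in *pkr2-2*. *CUC1* (AT3G15170, chromosome 3, 5109782 to 5111608, plus strand) had 1.27 FPKM in the double mutant and 5.84 FPKM in Col-0, at -2.20 (-2.59 to -1.83). It had 1.59 FPKM in *pkl-1* and 5.49 FPKM in Col-0, at -1.79 (-2.18 to -1.41), and 3.77 FPKM in *pkr2-2* and 5.01 FPKM in Col-0, at -0.41 (-0.71 to -0.11). For neither gene could a difference between the double mutant and *pkl-1* be told from 0 at this depth. *CUC1* had 1.44 FPKM in the double mutant and 1.90 FPKM in *pkl-1* (-0.40, -0.87 to 0.07), and *CUC2* had 0.656 FPKM in the double mutant and 0.837 FPKM in *pkl-1* (-0.35, -1.01 to 0.31). The *CUC2* values of the mutants rest on about 42 fragments for the double mutant and 41 for *pkl-1*, against 226 in Col-0.

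Because *CUC1* and *CUC2* carry the same miR164 site printed above, the other genes with such a site were looked up by sequence alone, after the values of the pair were known. Of 27440 coding genes searched, 6 had a site with at most 3 mismatches in their longest transcript, *CUC1* and *CUC2* among them. Mature microRNAs were not measured by these libraries. *NAC1*, a NAC-domain gene of root development, had 15.2 FPKM in the double mutant and 17.6 FPKM in Col-0 (-0.21), and 23.8 FPKM in *pkl-1* and 16.6 FPKM in Col-0 (0.53). *NAC100* had 1.74 FPKM in the double mutant and 5.24 FPKM in Col-0 (-1.59), and 3.48 FPKM in *pkl-1* and 4.93 FPKM in Col-0 (-0.50). *NAC080* had 2.60 FPKM in the double mutant and 1.40 FPKM in Col-0 (0.90), and 1.23 FPKM in *pkl-1* and 1.31 FPKM in Col-0 (-0.10). In these genotypes the genes with this site thus did not share a direction: *NAC100* lay below Col-0 in both, as the *CUC* pair did, and *NAC1* and *NAC080* each lay above Col-0 in a single genotype of the 2. Among all genes that passed the filter in *pkr2-2*, 8540 lay below Col-0 and 9353 above it. The 6 genes with a site all lay below Col-0 in *pkr2-2*, within 2-fold. Whether this departs from the share among all genes was not tested. The values were -0.48 for *NAC1*, -0.85 for *NAC100*, -0.76 for *NAC080* and -0.41 for *CUC1*. *CUC2* was at -0.10, and its counting interval holds 0 (-0.38 to 0.18). The remaining gene, AT3G12977 (-0.98 in *pkr2-2*), was under 1 FPKM in every genotype and did not pass. It also lay below Col-0 in the other mutants. It had 0 FPKM in the double mutant and 0.545 FPKM in Col-0, and 0.0966 FPKM in *pkl-1* and 0.513 FPKM in Col-0.

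*STM* was the member past 2-fold lower in *pkr2-2* and past 2-fold higher in *pkl-1*. It is encoded on chromosome 1 from 23058582 to 23062063 on the minus strand (AT1G62360). It had 1.06 FPKM in *pkr2-2*, against 2.68 FPKM in Col-0, and its log2 fold change was -1.34 (-1.78 to -0.91), resting on 63 fragments in *pkr2-2* and 169 in Col-0. It had 5.89 FPKM in *pkl-1*, against 2.94 FPKM in Col-0, at 1.00 (0.74 to 1.27), just past 2-fold. Computed through the other 2 tables this value was 0.99, just within 2-fold. In the double mutant it had 10.4 FPKM, against 3.13 FPKM in Col-0, at 1.73 (1.49 to 1.98). *STM* was thus lowest in *pkr2-2* and highest in the double mutant, with Col-0 and *pkl-1* between them. Set directly against the single mutants, the double mutant had 10.6 FPKM and *pkr2-2* 1.25 FPKM, a log2 fold change of 3.08 (2.71 to 3.47), and the double mutant had 11.8 FPKM and *pkl-1* 7.05 FPKM, at 0.75 (0.57 to 0.92). *STM* was the gene of the set with the largest change among the 4 members that had at least 1 FPKM in every genotype. Among 16107 genes, the 3 with the most similar log2 fold changes over the 5 comparisons, by Euclidean distance, were AT1G49200 at 0.676, *KIN2*, a cold-responsive gene, at 0.686 and AT1G19380 at 0.887. The 5 comparisons are not independent points, since they share 4 genotypes. *KIN2* had log2 fold changes of -1.13 in *pkr2-2*, 0.81 in *pkl-1* and 1.42 for the double mutant against Col-0.

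The WOX genes differed among themselves. *WOX8*, a marker of the basal lineage that forms the suspensor, had 0.984 FPKM in the double mutant and 4.22 FPKM in Col-0, and its log2 fold change was -2.10 (-2.57 to -1.65). It had 1.54 FPKM in *pkl-1* and 3.97 FPKM in Col-0 (-1.37, -1.79 to -0.95). In *pkr2-2* it had 1.87 FPKM, against 3.62 FPKM in Col-0 (-0.95, -1.37 to -0.55), just within 2-fold. *WOX8* (AT5G45980, chromosome 5, 18648886 to 18650836, plus strand) was thus below Col-0 in all 3 mutants. *WOX2*, which acts in the apical lineage (AT5G59340, chromosome 5, 23933338 to 23935050, minus strand), had 0.547 FPKM in the double mutant and 1.36 FPKM in Col-0 (-1.31, -1.96 to -0.67). It had 0.574 FPKM in *pkl-1* and 1.28 FPKM in Col-0 (-1.15, -1.85 to -0.48), and 1.34 FPKM in *pkr2-2* and 1.16 FPKM in Col-0 (0.21, -0.34 to 0.76). These *WOX2* values rest on 35 fragments in the double mutant, 29 in *pkl-1*, 60 in *pkr2-2* and 55 in Col-0, and the intervals against Col-0 for *pkl-1* and the double mutant reach within 2-fold. *WOX9*, also known as *STIMPY* and listed in the tables as *HB-3* (AT2G33880, chromosome 2, 14341355 to 14343796, minus strand), is the close relative of *WOX8* that acts with it in the early embryo. It had 4.84 FPKM in the double mutant, against 2.75 FPKM in Col-0 (0.82, 0.56 to 1.08). It had 2.09 FPKM in *pkl-1* and 2.59 FPKM in Col-0 (-0.31, -0.63 to 0.01), and 2.70 FPKM in *pkr2-2* and 2.36 FPKM in Col-0 (0.19, -0.12 to 0.50). *WOX9* was thus above its Col-0 level in the double mutant, and its intervals in both single mutants hold 0. In the double mutant *WOX9* and *WOX8* lay on opposite sides of Col-0.

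The PLT genes, regulators of the root stem cell niche, differed in how far their levels could be read, since *PLT1* passed the filter in every comparison with Col-0 and *PLT2* in that of *pkr2-2* alone. *PLT1* (AT3G20840, chromosome 3, 7300444 to 7303693, plus strand) had 0.638 FPKM in the double mutant and 2.66 FPKM in Col-0, at -2.06 (-2.46 to -1.67). It had 1.03 FPKM in *pkl-1* and 2.50 FPKM in Col-0 (-1.29, -1.65 to -0.93), and 1.37 FPKM in *pkr2-2* and 2.28 FPKM in Col-0 (-0.74, -1.09 to -0.40). *PLT1* therefore lay below Col-0 in every mutant. *PLT2* (AT1G51190, chromosome 1, 18977176 to 18980618, plus strand) had 0.246 FPKM in the double mutant and 0.980 FPKM in Col-0, at -1.99 (-2.68 to -1.34) from 28 fragments in the double mutant and 70 in Col-0. It had 0.501 FPKM in *pkl-1* and 0.921 FPKM in Col-0 (-0.88, -1.45 to -0.32), and 1.01 FPKM in *pkr2-2* and 0.840 FPKM in Col-0 (0.27, -0.21 to 0.75). *PLT2* had the lowest value of the set in every genotype, overlapping with *WOX2* in Col-0 and *pkl-1* and with *STM* in *pkr2-2*.

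*MP*, the auxin response factor, had the highest level of the set in every genotype and so the narrowest intervals. It had 39.9 FPKM in the double mutant and 21.8 FPKM in Col-0 (0.87, 0.81 to 0.94), and 35.3 FPKM in *pkl-1* and 20.5 FPKM in Col-0 (0.79, 0.72 to 0.86). In *pkr2-2* it had 17.0 FPKM, against 18.7 FPKM in Col-0 (-0.13, -0.22 to -0.05). *MP* was thus higher in the genotypes that carry a *pkl* allele, by less than 2-fold against Col-0. Its gene (AT1G19850, chromosome 1, 6886669 to 6891404, plus strand) overlaps AT1G19860 on the other strand by 23 nucleotides, where reads of the 2 genes cannot be told apart without strand. The other 8 members overlap no annotated gene.

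The loss of PKL could be compared in 2 backgrounds, as the double mutant against *pkr2-2* and as *pkl-1* against Col-0. The first holds *pkl-10* and the second *pkl-1*. A difference between backgrounds below therefore cannot be told apart from a difference between these alleles. Against *pkr2-2*, 9 of 9 members passed in the double mutant, 2 were past 2-fold higher (*STM* and *MP*) and 6 past 2-fold lower, where among all genes 11.0% were higher and 9.56% lower. With a pseudocount of 1 FPKM 1 was higher (*STM*) and 2 were lower, and with at least 1 FPKM required in both genotypes 2 were higher and 2 lower of 5 that passed. At 4-fold the count was 3, against 6.48% of all genes. *CUC2* had 0.586 FPKM in the double mutant and 4.64 FPKM in *pkr2-2* (-2.98), *PLT2* 0.250 FPKM in the double mutant and 1.20 FPKM in *pkr2-2* (-2.26), and *CUC1* 1.29 FPKM in the double mutant and 4.45 FPKM in *pkr2-2* (-1.79). *WOX2* had a log2 fold change of -1.51, *PLT1* of -1.32, *WOX8* of -1.14, *WOX9* of 0.63 and *MP* of 1.01. The difference between the backgrounds, taken as the log2 fold change of the double mutant over *pkr2-2* minus that of *pkl-1* over Col-0, was 2.08 for *STM* (1.62 to 2.53), 0.94 for *WOX9* (0.55 to 1.34) and 0.23 for *MP* (0.13 to 0.33). For *PLT2*, which passed the filter in a single table of the 2, it was -1.38 (-2.20 to -0.56). For the other 5 members the interval of the difference holds 0, and for *CUC1* it was 0.00 (-0.53 to 0.54). *STM* was the member past 2-fold in this difference among the 8 that passed in both tables. Of 17994 genes, 8.84% were past 2-fold in either direction. A positive difference of at least that of *STM* was found for 0.684%, negative ones of that size not being counted. The sign was the same in both backgrounds for 7 of these 8 members, against 79.4% of all genes, *WOX9* being the exception.

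**Figure D3:**
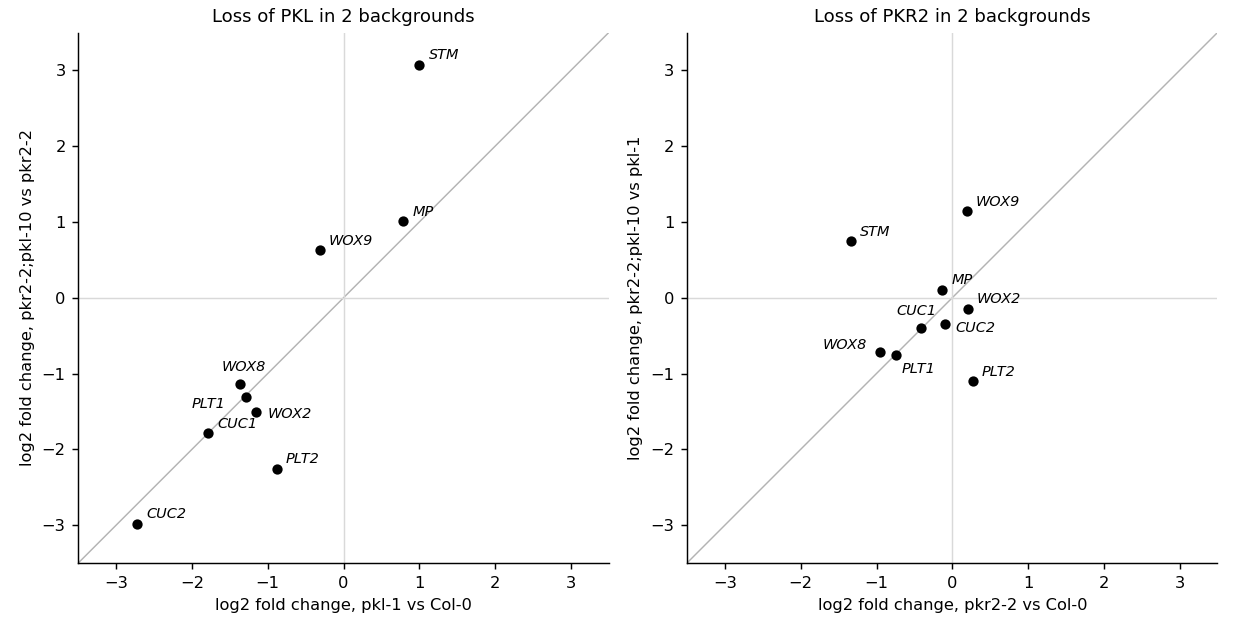
Log2 fold change of each of the 9 genes in the 2 backgrounds, for the loss of PKL at left and of PKR2 at right. The double mutant carries *pkl-10* and the single mutant *pkl-1*, so background and allele cannot be told apart. The vertical axis is the comparison made with the double mutant and the horizontal axis the comparison made with Col-0, and the diagonal marks equal values. *STM* lies farthest above the diagonal in both panels, and in the right panel it is below 0 on the horizontal axis and above 0 on the vertical axis.

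The loss of PKR2 was compared in the same way, as the double mutant against *pkl-1* and as *pkr2-2* against Col-0. The first of these also holds the change from *pkl-1* to *pkl-10*, so the same limit applies. Between the double mutant and *pkl-1*, 6 of the 9 members passed, 1 was past 2-fold higher (*WOX9*) and 0 lower, where among all genes 4.13% were higher and 2.94% lower, and 0 members were past 4-fold, against 1.67% of all genes. *WOX9* had 5.51 FPKM in the double mutant and 2.50 FPKM in *pkl-1* (1.14, 0.88 to 1.41). *WOX8* had 1.12 FPKM in the double mutant and 1.84 FPKM in *pkl-1* (-0.72, -1.25 to -0.20), and *PLT1* had 0.725 FPKM in the double mutant and 1.23 FPKM in *pkl-1* (-0.76, -1.21 to -0.31). For both genes this value was close to the one in *pkr2-2* against Col-0, and the interval of the difference between the backgrounds holds 0 (-0.41 to 0.88 for *WOX8* and -0.57 to 0.53 for *PLT1*). *MP* had 45.4 FPKM in the double mutant and 42.3 FPKM in *pkl-1* (0.10, 0.05 to 0.16). *PLT2* had 0.280 FPKM in the double mutant and 0.599 FPKM in *pkl-1* (-1.10) and did not pass, nor did *WOX2*, with 0.622 FPKM in the double mutant and 0.688 FPKM in *pkl-1* (-0.15). *STM* was above *pkl-1* in the double mutant (0.75) and below Col-0 in *pkr2-2* (-1.34), a difference of 2.08 (1.63 to 2.53). It was the member past 2-fold in this difference among the 6 that passed in both. Of 17388 genes, 8.11% were past 2-fold in either direction. A positive difference of at least that of *STM* was found for 0.610%, negative ones of that size not being counted. The *STM* difference is the same contrast of 4 genotypes as the one given for PKL, computed from the other pair of tables, and is no second measurement. The sign was the same in both backgrounds for 4 of the 6 members, against 61.3% of all genes, and *STM* and *MP* were the exceptions.

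Other genes of embryo patterning and the meristems were counted in 8 groups by role, 58 genes in all. In *pkr2-2*, 36 passed the filter, 1 was past 2-fold higher and 1 lower, where all genes had 5.09% higher and 3.11% lower. In *pkl-1*, 39 passed, 7 were higher and 9 lower, beside 9.81% and 8.34% of all genes. In the double mutant 40 passed, 10 were higher and 13 lower, beside 15.2% and 11.2% of all genes, and these shares are also the background of the counts by role. Their median log2 fold change was -0.02 in *pkr2-2*, 0.06 in *pkl-1* and 0.25 for the double mutant. Between the double mutant and *pkr2-2*, 8 of 37 were higher and 11 lower (all genes, 11.0% and 9.56%), and between the double mutant and *pkl-1*, 1 of 34 was higher and 3 lower (all genes, 4.13% and 2.94%). Over the genes that passed, the median of the 9 members in *pkl-1* and the double mutant was thus negative and that of the 58 other genes was not.

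The relatives of *PLT1* and *PLT2* that passed in *pkl-1* and the double mutant lay in the same direction as *PLT1*. Of 6 other PLT/AIL genes, 3 passed in *pkl-1* and likewise in the double mutant, and all 3 were past 2-fold lower in both. In the double mutant these genes (*BBM*, *PLT3* and *ANT*) were under 1 FPKM and passed through their level in Col-0. The same held for *ANT* in *pkl-1*, and this way of passing fixes the direction. Among those that did not pass, *PLT7* and *AIL5* lay below Col-0 in both genotypes. *AIL1* lay above it in both, with 0.366 FPKM in the double mutant and 0 FPKM in Col-0. *BBM*, which can induce embryos from vegetative tissue, had 0.973 FPKM in the double mutant and 5.84 FPKM in Col-0 (-2.58), and 1.61 FPKM in *pkl-1* and 5.50 FPKM in Col-0 (-1.77). *PLT3* had 0.709 FPKM in the double mutant and 4.69 FPKM in Col-0 (-2.73). *ANT*, a regulator of organ growth, was the gene of the 58 past 2-fold lower in *pkr2-2*, with 0.436 FPKM in *pkr2-2* and 1.84 FPKM in Col-0 (-2.08). It passed through Col-0 in that comparison as well. In the double mutant it was also lower (-1.86). Of the 12 other WOX genes, 3 passed in the double mutant. *WOX5*, the marker of the root quiescent centre, had 0.280 FPKM in the double mutant and 2.28 FPKM in Col-0 (-3.03). It had 0.447 FPKM in *pkl-1* and 2.14 FPKM in Col-0 (-2.26). It was under 1 FPKM in both mutants and passed through Col-0, which fixes its direction. *WOX14* lay the other way, with 1.18 FPKM in the double mutant and 0.0568 FPKM in Col-0 (4.37). This fold change rests on a Col-0 value near 0, and *WOX14* passed through the double mutant.

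The genes that surround *STM* in the shoot meristem were split by role. Of 6 boundary and KNOX genes, 5 passed in the double mutant, and 3 were past 2-fold higher and 0 lower. Of these, *KNAT1* and *AS2* were under 1 FPKM in Col-0 and passed through the double mutant. *KNAT6* and *CUC3* were under 1 FPKM in the double mutant and passed through Col-0. *KNAT1* likewise passed through *pkr2-2* in the comparison of that mutant with Col-0. This way of passing fixes the direction. *KNAT1*, a KNOX gene and relative of *STM*, had 2.97 FPKM in the double mutant and 0.728 FPKM in Col-0 (2.03), and it was the gene of the 58 past 2-fold higher in *pkr2-2*, where *STM* was lower, with 1.25 FPKM in *pkr2-2* and 0.625 FPKM in Col-0 (1.00, just past 2-fold). *AS1*, a repressor of KNOX genes in leaves, had 9.41 FPKM in the double mutant and 4.15 FPKM in Col-0 (1.18), and its partner *AS2* had 1.87 FPKM in the double mutant and 0.361 FPKM in Col-0 (2.37). *KNAT1* and these repressors were thus on the same side of Col-0, while the KNOX gene *KNAT6* had a value of -0.89 there. *CUC3*, the remaining *CUC* gene, had 0.869 FPKM in the double mutant and 1.10 FPKM in Col-0 (-0.35), within 2-fold. Of 6 stem cell genes, 5 passed in the double mutant, and 3 were past 2-fold lower and 0 higher. In the double mutant *DRNL* and *DRN* were under 1 FPKM and passed through Col-0, which fixes their direction there. *CLV2* had at least 1 FPKM in both genotypes. *DRNL*, an AP2 gene of cotyledon initiation, had 0.173 FPKM in the double mutant and 8.59 FPKM in Col-0 (-5.63), and 1.40 FPKM in *pkl-1* and 8.08 FPKM in Col-0 (-2.53). Its relative *DRN* had 0.482 FPKM in the double mutant and 1.68 FPKM in Col-0 (-1.80), and *CLV2*, a receptor-like protein of the CLAVATA pathway, had 12.0 FPKM in the double mutant and 27.1 FPKM in Col-0 (-1.17).

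Genes that work with *MP* were higher or within 2-fold where they passed the filter. Of 8 root and auxin response genes, 7 passed, and 2 were past 2-fold higher in *pkl-1* and likewise in the double mutant and 0 lower. The gene that did not pass, *TMO7*, lay below Col-0 in both. It had 0 FPKM in the double mutant and 0.147 FPKM in Col-0, and 0.0376 FPKM in *pkl-1* and 0.138 FPKM in Col-0. *TMO5*, a direct target of MP, had 4.18 FPKM in the double mutant and 1.07 FPKM in Col-0 (1.96), and its partner *LHW* had 19.9 FPKM in the double mutant and 6.97 FPKM in Col-0 (1.51). Of 8 genes of the zygote and early axis, 6 passed in the double mutant, and 4 were past 2-fold lower and 0 higher. Of these 4, *HDG12* and *HDG11* were under 1 FPKM in the double mutant and passed through Col-0, which fixes their direction. *HAN*, a GATA factor of the embryo, had 1.44 FPKM in the double mutant and 5.26 FPKM in Col-0 (-1.87), *HDG12* 0.799 FPKM in the double mutant and 2.64 FPKM in Col-0 (-1.73), and *CLE8*, a peptide gene that acts through *WOX8*, 29.1 FPKM in the double mutant and 82.3 FPKM in Col-0 (-1.50). *CLE8* was thus low together with *WOX8* in the double mutant, whereas in *pkr2-2* it had 108 FPKM, against 70.6 FPKM in Col-0 (0.62). Of 4 epidermal genes, which all passed, *ALE1*, a protease gene expressed in the endosperm, was the gene past 2-fold lower in the double mutant, with 1.80 FPKM in the double mutant and 24.0 FPKM in Col-0 (-3.73). Of 8 polarity genes, 7 passed in the double mutant, and 4 were past 2-fold higher and 1 lower. *FIL* was under 1 FPKM in the double mutant and passed through Col-0. *CNA* was just under 1 FPKM in Col-0 and passed through the double mutant. The direction of both is fixed by this. The adaxial homeodomain gene *PHB* had 8.70 FPKM in the double mutant and 3.16 FPKM in Col-0 (1.46), *CNA* had 3.77 FPKM in the double mutant and 0.999 FPKM in Col-0 (1.92), and the abaxial YABBY gene *FIL* had 0.840 FPKM in the double mutant and 5.86 FPKM in Col-0 (-2.80). The polarity genes were not split by side, since the abaxial gene *KAN* had 3.27 FPKM in the double mutant and 1.32 FPKM in Col-0 (1.31).

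**Figure D4:**
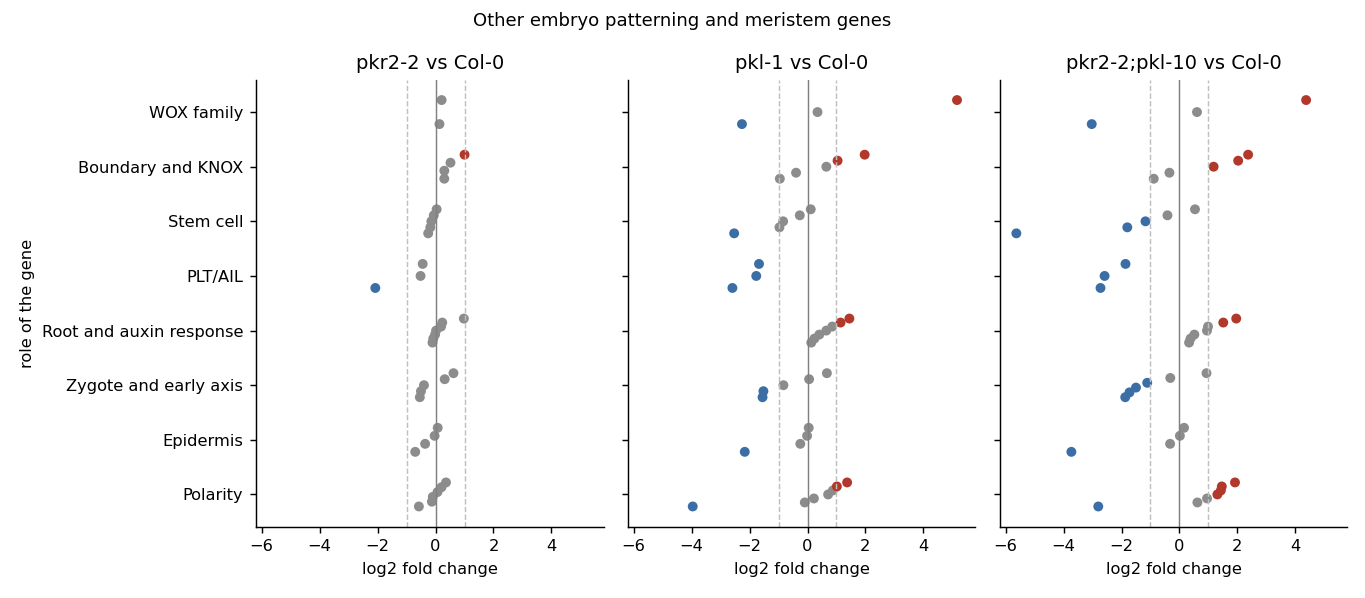
Log2 fold change against Col-0 (horizontal axis) of the other 58 embryo patterning and meristem genes, by role, for those that passed the filter. Red points are past 2-fold higher in the mutant, blue points past 2-fold lower and grey points within 2-fold, and dashed lines mark 2-fold. The 3 PLT/AIL points are blue in *pkl-1* and likewise in the double mutant, where all were under 1 FPKM and passed through Col-0. The stem cell point at -5.63, in the double mutant, is *DRNL*, which also passed through Col-0 there.

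Seeds hold embryo, endosperm and seed coat, and the embryo is a small part of them. In such bulk samples fewer cells of a type and less RNA per cell cannot be told apart. Markers of the embryo (*LEC1*, *LEC2*, *FUS3* and *ABI3*) summed to 6.20 FPKM in the double mutant and 104 FPKM in Col-0, to 14.4 FPKM in *pkl-1* and 97.5 FPKM in Col-0, and to 70.4 FPKM in *pkr2-2* and 88.9 FPKM in Col-0. *LEC1* made up most of each sum. It was past 2-fold lower in *pkl-1* (-2.80) and the double mutant (-4.20), and was above 1 FPKM in every genotype. *LEC2* and *ABI3* were also past 2-fold lower there. Both were under 1 FPKM in these mutants and passed through their level in Col-0, which fixes their direction. *FUS3* did not pass in either comparison, with log2 fold changes of -0.60 for *pkl-1* and -1.40 for the double mutant. The embryo sum was thus low in the genotypes in which *CUC1*, *CUC2*, *PLT1*, *WOX2* and *WOX8* were low. As background, the *LEC* genes are themselves known to be regulated by PKL in seedlings. The 7 endosperm markers summed to 46.7 FPKM in the double mutant and 105 FPKM in Col-0, to 54.9 FPKM in *pkl-1* and 98.4 FPKM in Col-0, and to 73.3 FPKM in *pkr2-2* and 89.8 FPKM in Col-0. The counts were split: in the double mutant 6 passed, 4 were past 2-fold lower and 2 higher. In *pkl-1* 5 passed, 1 was lower and 1 higher, and in *pkr2-2* 4 passed and 0 were past 2-fold. *AGL62*, a regulator of endosperm cellularization, was the higher one in *pkl-1* (1.78) and was also higher in the double mutant (1.92), as was *MEA* (1.24). Both were under 1 FPKM in Col-0 and passed through the mutants named, which fixes their direction. The 4 lower ones in the double mutant had at least 1 FPKM in both genotypes. Among them *PHE1* and *FWA*, which made up most of each sum, had log2 fold changes of -1.17 and -1.23. The 5 seed coat markers summed to 1492 FPKM in the double mutant and 1249 FPKM in Col-0, to 1428 FPKM in *pkl-1* and 1176 FPKM in Col-0, and to 1160 FPKM in *pkr2-2* and 1072 FPKM in Col-0. The 3 markers of the silique wall (*FUL*, *IND* and *ALC*) were all past 2-fold higher in *pkl-1* and the double mutant, with sums of 113 FPKM in the double mutant and 37.0 FPKM in Col-0, of 88.7 FPKM in *pkl-1* and 34.8 FPKM in Col-0, and of 51.7 FPKM in *pkr2-2* and 31.7 FPKM in Col-0. *ALC* made up most of each of these sums, with 104 FPKM in the double mutant and 35.4 FPKM in Col-0. *FUL* and *IND* were under 1 FPKM in Col-0 and passed through *pkl-1* and the double mutant, which fixes their direction there. The silique wall sum was thus high where *STM*, *MP*, *KNAT1* and *AS2* were high. In *pkr2-2* it was also above Col-0 while *STM* was below. Between the double mutant and *pkl-1* the embryo markers summed to 7.05 FPKM in the double mutant and 17.2 FPKM in *pkl-1*, and the silique wall markers to 129 FPKM in the double mutant and 106 FPKM in *pkl-1*. None of the 19 markers was at 0 in any genotype. The part of these shifts in the results above was not tested.

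**Figure D5:**
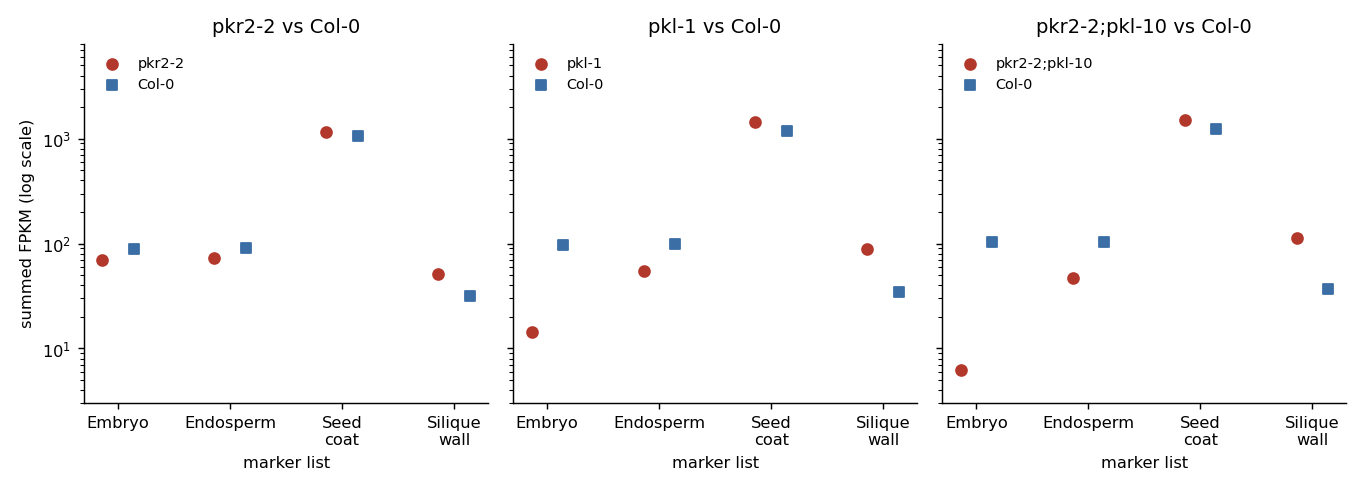
Summed FPKM (log scale) of the marker lists for embryo (4 genes), endosperm (7), seed coat (5) and silique wall (3), with red circles for the mutant named in the panel title and blue squares for Col-0. In *pkl-1* and the double mutant the embryo sum lies below Col-0 and the silique wall sum above it.

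Promoter windows of 250 nucleotides upstream of each annotated start, on TAIR10.1, were searched on both strands for 4 motifs. TGTCTC and TGTCGG are binding letters of auxin response factors such as MP, AAACCCTA is the telobox, and GAGAGA is the letter run bound by BASIC PENTACYSTEINE proteins, the last 2 being linked to Polycomb recruitment in Arabidopsis. A TGTCTC motif and a GAGAGA motif on the other strand can share letters. Of 27443 coding genes, 10.9% had TGTCTC, 4.16% TGTCGG, 4.49% AAACCCTA and 20.6% GAGAGA in this window. Of the 9 members, *WOX8* had TGTCTC, *PLT1* had TGTCGG, 0 had AAACCCTA, and 4 had GAGAGA (*WOX2*, *WOX8*, *WOX9* and *PLT1*). The windows of *WOX8* and *PLT1*, both low in all 3 mutants, and of *STM*, which had none of the motifs, are printed with motif letters in capitals, from 5′ to 3′ on the strand of the gene.
WOX8: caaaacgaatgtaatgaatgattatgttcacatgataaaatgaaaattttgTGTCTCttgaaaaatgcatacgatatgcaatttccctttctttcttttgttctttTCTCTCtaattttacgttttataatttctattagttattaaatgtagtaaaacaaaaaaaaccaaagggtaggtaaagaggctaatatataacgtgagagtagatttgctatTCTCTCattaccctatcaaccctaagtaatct
PLT1: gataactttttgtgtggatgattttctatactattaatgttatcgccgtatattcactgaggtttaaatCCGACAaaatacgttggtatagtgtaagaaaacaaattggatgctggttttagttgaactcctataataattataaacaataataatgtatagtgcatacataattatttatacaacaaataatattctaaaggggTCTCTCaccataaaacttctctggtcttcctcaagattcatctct
STM: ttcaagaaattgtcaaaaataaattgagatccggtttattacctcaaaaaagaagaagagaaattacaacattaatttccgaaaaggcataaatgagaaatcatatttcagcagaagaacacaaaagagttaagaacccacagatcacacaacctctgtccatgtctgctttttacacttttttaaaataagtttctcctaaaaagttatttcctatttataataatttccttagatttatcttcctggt
The windows lie at chr5:18648636-18648885 on the plus strand for *WOX8*, chr3:7300194-7300443 on the plus strand for *PLT1* and chr1:23062064-23062313 on the minus strand for *STM*. Members with GAGAGA were found on both sides of Col-0 in the double mutant, since *WOX9* was above it and *WOX2*, *WOX8* and *PLT1* were below. *CUC1*, *CUC2*, *PLT2* and *MP* held none of the 4 motifs, as *STM* did. These matches describe the letters of the windows only.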

How the data were processed

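Seed mRNA was sequenced in paired-end reads at a stated depth of 20000000 reads per sample. Fastp trimming was followed by mapping to TAIR10.1, and the authors then ran Cuffdiff separately for every comparison under geometric normalization (TopHat2 2.1.1 and Cufflinks 2.2.1.3 in the submitters' processing notes). The deposited FPKM values were pooled by the authors over both replicates. The fold change, test statistic, p-value and q-value columns that the authors deposited were not used. Columns with values per sample that were not used numbered 0.

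Log2 fold changes were computed from FPKM without a pseudocount, after a filter of at least 1 FPKM in one genotype and a value above 0 in both. With 1 pooled value per genotype in a table, no test between genotypes was made from them. Fragments were estimated from single-transcript coding genes of at least 2000 nucleotides, where 72.0% to 98.5% of the low values lay within 0.2 of a whole 1, 2 or 3 fragments. Intervals are 95% exact conditional binomial for ratios, exact Poisson for levels, and by normal approximation for differences of log2 fold changes. The script was tested on simulated data. Transcript and promoter sequences were taken from the RefSeq annotation of TAIR10.1. Harvest days differ between sources.

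All 9 members were named, with *PKL* and *PKR2* first. Of the other genes, at most 3 per role past 2-fold against Col-0 were named, by mean FPKM. *CUC3*, *KNAT6*, *KAN*, *HDG11*, *TMO7*, the endosperm markers and the genes with a miR164 site were added after their values were seen. The 3 genes most like the member with the largest change were named by rule. The members and gene lists were chosen with earlier results of these data known. Alternatives were pseudocounts of 0.1 and 1 FPKM, other filters, a 4-fold threshold, centring on nuclear genes and the sum of 2 other tables. Calculations used pandas 2.3.3 and numpy 2.4.6 under Python 3.11.15, intervals scipy 1.17.1 and plots matplotlib 3.10.9.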

Additional observations from a re-analysis of the deposited data

Results flagged for a closer look

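*STM* and *MP* lay on opposite sides of the compared genotype in the 2 comparisons taken for the loss of PKR2. The double mutant carries *pkl-10* in place of *pkl-1*, so an effect of the allele and one of the background cannot be told apart. The log2 fold change of *STM* was 0.75 in the double mutant against *pkl-1* and -1.34 in *pkr2-2* against Col-0, a difference of 2.08. That of *MP* was 0.10 in the double mutant against *pkl-1* and -0.13 in *pkr2-2* against Col-0, a difference of 0.24. Each genotype has 1 pooled value, so neither difference was tested, and that of *MP* rests on changes of less than 2-fold in both backgrounds.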

How the results depend on the processing

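No paired analysis was possible because the deposited values are pooled over the replicates of a genotype, and for the same reason no replicate could be left out. With a pseudocount of 1 FPKM the members past 2-fold numbered 0 of the main 1 in *pkr2-2* against Col-0, 2 of 6 in *pkl-1* against Col-0, 3 of 8 for the double mutant against *pkr2-2* and 0 of 1 for the double mutant against *pkl-1*. At a threshold of 4-fold they numbered 0 in *pkr2-2*, 1 in *pkl-1*, 3 in the double mutant against *pkr2-2* and 0 in the double mutant against *pkl-1*. When at least 1 FPKM was required in both genotypes they numbered 2 of the main 6 in the double mutant against Col-0 and 4 of 8 in the double mutant against *pkr2-2*, since most of the low members are under 1 FPKM in the double mutant. Without a filter the double mutant against *pkl-1* had 2 members past 2-fold in place of 1. Of the 180 single-gene values under the alternatives, 0 changed sign. Of 24 single-gene values past 2-fold before any filter, that status was lost by 14 with a pseudocount of 1 FPKM, 2 with 0.1 FPKM, 1 with the sum of 2 other tables and 0 with centring on nuclear genes. Counting error was the precision known, and *WOX2*, *PLT2* and *CUC2* in the *pkl* genotypes rest on fewer than 50 fragments each.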
